A study of Homo sapiens with 6 samples.

Results

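The 40 genes described here encode the cytosolic and mitochondrial heat shock chaperones of human cells, their cochaperones and their transcription factors. They were taken by symbol from a list of chaperone names, and all 40 were found among the 26789 genes of the expression table. Chaperones bind unfolded or newly made proteins and help them to fold. HSP70 proteins work in cycles with J-domain partners and nucleotide exchange factors, HSP90 finishes many kinases and receptors, small heat shock proteins hold unfolded clients, and barrel-shaped chaperonins fold proteins inside a closed chamber. When unfolded protein builds up in the cytosol, heat shock factor 1 (HSF1) binds heat shock elements and raises the transcription of many of these genes.

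Gene expression was measured by RNA sequencing of SK-N-SH cells, an established human neuroblastoma line labelled wild type, after 6 h in medium with dopamine (DA+, n = 3) or in medium alone (DA-, n = 3). All cells had been cultured in standard medium before the treatment. The labels give the dopamine dose without a usable unit, so it is not interpreted here, and the series design text names SH-SY5Y, a subline of SK-N-SH, as the treated line. Replicates carry the numbers 1 to 3 in both groups, and no label says whether they were separate cultures, so the spread behind each p-value may be technical. In bulk RNA of this kind, fewer cells of a type and less RNA per cell cannot be told apart. Values are FPKM, which by definition divides the fragments of each gene by gene length and library size. How they were computed is not stated, so levels of different genes can be compared only roughly.

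Library totals, estimated from the steps between low values of short pseudogenes, were 19402000 to 21381000 fragments in DA+ and 20672000 to 24233000 in DA- libraries. Of 10 neuroblastoma markers 9 passed the filter, with HAND2 at 130.1 FPKM on average. PHOX2A (log2 fold change -0.25) and GATA2 (-0.20) were lower in every DA+ library, and of 6 mesenchymal neuroblastoma markers SNAI2 (0.46) was higher in every DA+ library. None of these 3 passed (limma adjusted p = 0.110, 0.141 and 0.110), and their groups overlapped once corrected for GC and length. The groups of the other tested markers of both lists overlapped as deposited. The mean was higher in DA+ cells for 5 of the 9 and 4 of the 6 markers, and for 6 and 2 once corrected. VIM (-0.28) and FN1 (-0.36) were then lower in every DA+ library, without passing (limma adjusted p = 0.148 and 0.256). The part of all these markers in the results was not tested. Of 6 blood markers 3 were in the table, with PTPRC at 0 in every DA+ library, and they summed to at most 0.0236 FPKM in DA+ and 0.113 FPKM in DA- libraries, and 3 of 4 endothelial markers were in the table and summed to 0.685 to 1.02 FPKM in DA+ and 0.439 to 0.831 FPKM in DA- libraries. The 5 epithelial markers in the table, of 6, summed to 3.01 to 3.35 FPKM in DA+ and 3.58 to 4.20 FPKM in DA- libraries, without overlap, and their part in the results was not tested. The dependence of expression on GC content also moved with the groups. Per 10 points of GC content, the deviation of a library from the gene means had a slope of -0.03, -0.06 and -0.26 log2 units in DA+ replicates 1, 2 and 3, against 0.02, 0.11 and 0.22 in DA- replicates 1, 2 and 3 (two-sided p = 0.1 in an exact permutation test, the smallest value 3 against 3 can give).

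No chaperone gene passed the test after 6 h of dopamine. All 40 had a mean of at least 1 FPKM over the 6 libraries and were tested, and 0 of 40 had an adjusted p under 0.05 (limma across all genes, Benjamini-Hochberg), where 12 of 11791 tested genes did (0.102%), 10 of them higher (0.0848%) and 2 lower (0.017%). The lowest adjusted p of a chaperone gene was 0.110. At an unadjusted p under 0.05 (limma) lay 17 chaperone genes with a higher mean in DA+ cells, which is 42.5% against 24.4% of all tested genes, and 3 with a lower mean, which is 7.5% against 8.05%. In either direction 32.5% of all tested genes lay under it. The 3 DA+ values lay above all 3 DA- values in 17 of 40 genes (42.5%, against 24.4% of all tested genes) and below them in 4 (10%, against 14.1%). The mean was higher in DA+ cells for 30 of the 40 (75%, against 60% of all tested genes). The median log2 fold change of the 40 was 0.20, that of all tested genes 0.08. Leaving out DA- replicate 1 brought 16 of the 40 past the adjusted threshold (15 higher and 1 lower), together with 2177 of all genes (18.5%), and sample quality weights brought 15 past it (12 higher and 3 lower), together with 2706 of all genes (22.9%). In both settings 12 of these were the same genes. Median-of-ratios scaling put the median over all genes at -0.02 and the chaperone median at 0.10, with 25 of the 40 means higher.

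**Figure D1:**
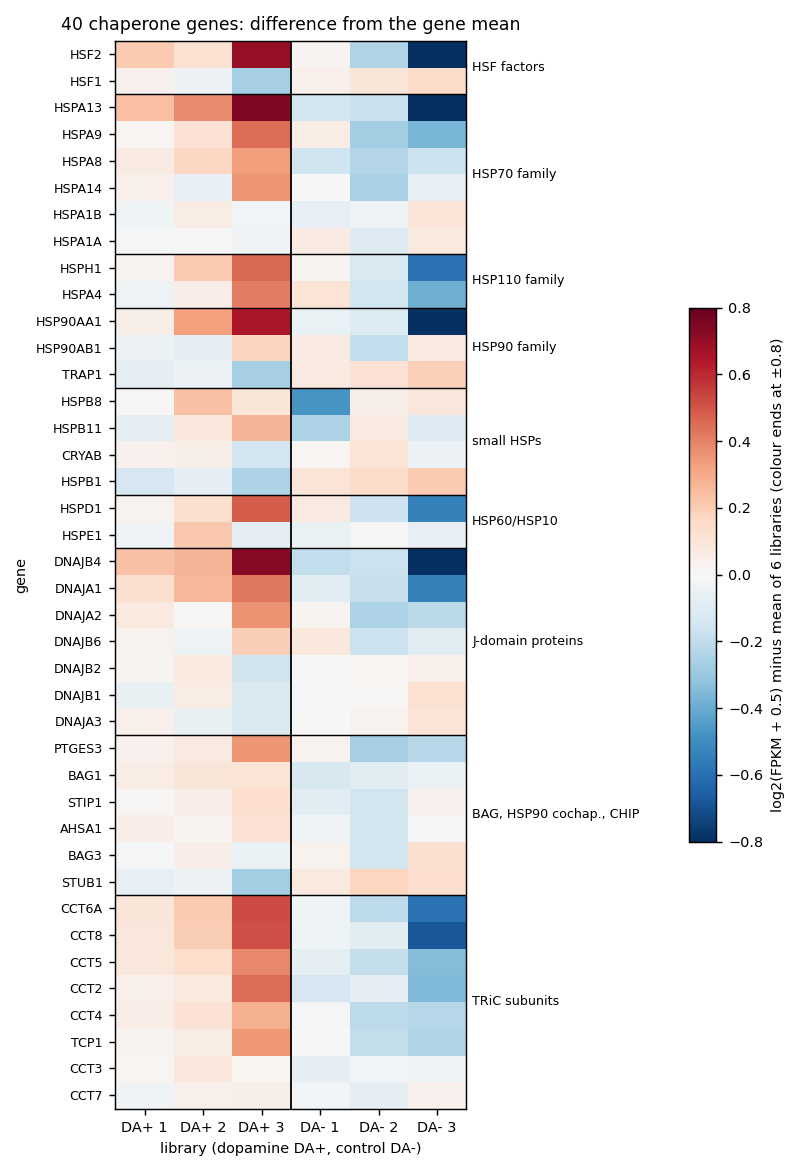
Difference of log2(FPKM + 0.5) from each gene's mean over the 6 libraries, for 40 chaperone genes in rows grouped by family and 6 libraries in columns (DA+ left, DA- right). Red is above and blue below the mean, and DA+ replicate 3 holds the highest value of 26 genes while DA- replicate 3 holds the lowest value of 15.

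Replicate 3 of each group stood apart. DA+ replicate 3 had the highest of the 6 values in 26 of the 40 genes (65%, against 44.2% of all tested genes). DA- replicate 3 had the lowest value in 15 of the 40 (37.5%, against 33.1%). Both held for the same gene in 15 cases (37.5%, against 27.979% of all tested genes), among them HSP90AA1, HSF2, HSPA13 and CCT8. Without both replicates numbered 3, 12 of 40 chaperone genes had an unadjusted p under 0.05 (30%, against 13.1% of all tested genes), and the median of the 40 log2 fold changes was 0.13, that of all genes 0.06.

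The transcription factor genes were present at unequal levels. HSF1 (ENSG00000185122.6, hg19 chromosome 8, 145515280 to 145538385), the main activator of the heat shock response, had 22.3, 21.1 and 18.0 FPKM in DA+ and 22.5, 23.4 and 24.2 FPKM in DA- cells. All DA+ values lay just below the DA- values, the nearest pair being 22.3 and 22.5 FPKM, and the log2 fold change was -0.19 (SE 0.09, limma adjusted p = 0.185). HSF2 (ENSG00000025156.8, hg19 chromosome 6, 122720691 to 122754264), a related factor that can pair with HSF1, had 4.41, 4.12 and 6.37 FPKM in DA+ and 3.81, 3.09 and 1.92 FPKM in DA- cells. The DA+ values were all higher, most so in replicate 3, and the log2 fold change was 0.69 (SE 0.22, limma adjusted p = 0.111). After a correction of each library for GC content and transcript length it was 0.34 with overlapping groups, and HSF1 stood at 0.00, also overlapping. HSF2 stood at 0.28 without both replicates numbered 3.

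Genes long known as HSF1 targets differed in direction. Of 12 such genes 0 passed in limma, and 7 had a higher mean in DA+ cells, 5 after median-of-ratios scaling. Their median log2 fold change was 0.04 as deposited, where that of all tested genes was 0.08. Corrected for each library's dependence on GC content and transcript length it was 0.09, with 9 of 12 means higher, where that of all genes was 0.00, and without both replicates numbered 3 it was 0.10 against 0.06. HSPA1A and HSPA1B are neighbouring genes that both encode the strongly heat-inducible HSP70. HSPA1A (ENSG00000204389.8, hg19 chromosome 6, 31783291 to 31785723) had 20.2, 20.5 and 19.98 FPKM in DA+ and 21.4, 19.0 and 21.6 FPKM in DA- cells. HSPA1B (ENSG00000204388.5, hg19 chromosome 6, 31795512 to 31798031) had 21.5, 23.0 and 21.7 FPKM in DA+ and 21.0, 21.4 and 23.7 FPKM in DA- cells. The groups overlapped in both genes. The 95% interval of the log2 fold change ran from -0.21 to 0.15 for HSPA1A and from -0.18 to 0.18 for HSPA1B (limma). Of the 50-base windows of HSPA1A transcript sequence, 72.6% also occur in HSPA1B transcripts, so how fragments were divided between the 2 genes is uncertain. Their sum averaged 42.3 ± 1.03 FPKM in DA+ and 42.7 ± 2.46 FPKM in DA- cells (SD, n = 3 each; exact permutation test, two-sided, p = 0.8).

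DNAJB1, the heat-inducible J-domain partner of HSP70, had 52.3, 56.7 and 50.2 FPKM in DA+ and 53.8, 54.7 and 59.2 FPKM in DA- cells (log2 fold change -0.07, 95% interval -0.25 to 0.10 from limma). BAG3, an HSP70 exchange factor that directs clients to autophagy, had 51.1, 53.4 and 49.5 FPKM in DA+ and 52.4, 46.4 and 56.4 FPKM in DA- cells (log2 fold change -0.01, 95% interval -0.20 to 0.19 from limma). In both genes the groups overlapped. CRYAB, which encodes the small heat shock protein alpha-B crystallin, was low, with 1.69, 1.70 and 1.42 FPKM in DA+ and 1.65, 1.80 and 1.56 FPKM in DA- cells, overlapping (log2 fold change -0.05, 95% interval -0.34 to 0.24 from limma).

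**Figure D2:**
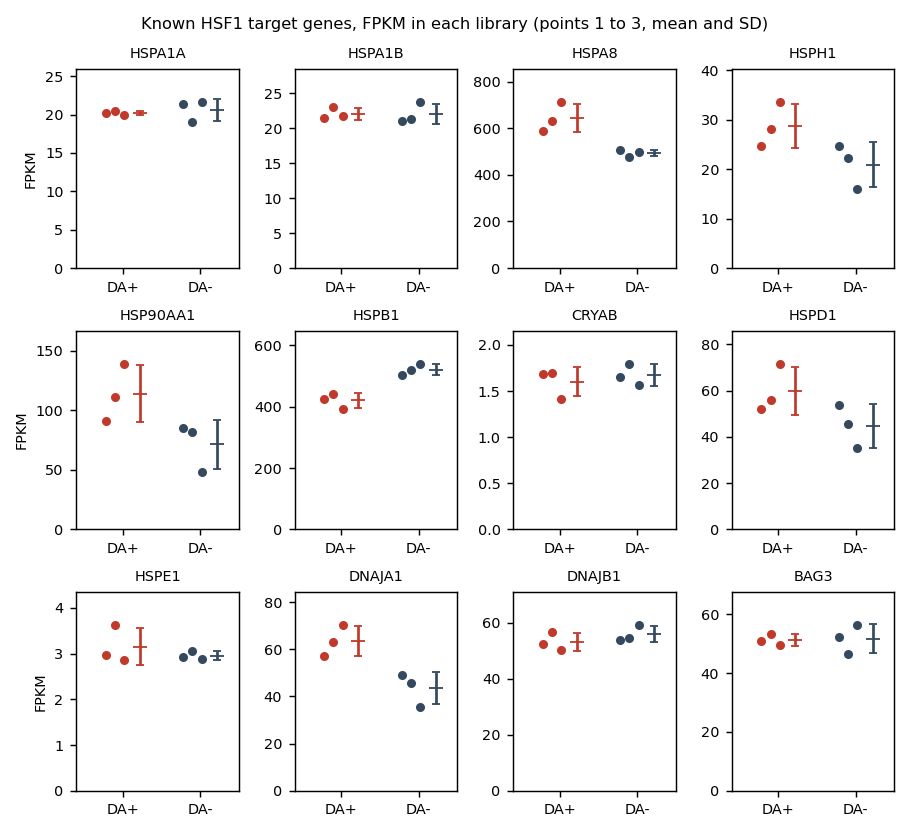
FPKM of 12 known HSF1 target genes in each library (points in the order of replicates 1 to 3; horizontal line and bar, mean and SD, n = 3), DA+ in red on the left and DA- in dark blue on the right of each panel, with each axis starting at 0. HSPA1A, HSPA1B, DNAJB1 and BAG3 overlap between groups, HSPA8, DNAJA1, HSPH1 and HSP90AA1 are higher in every DA+ library, and HSPB1 is lower in every DA+ library.

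Other targets of the same factor had separated groups. HSPA8 (ENSG00000109971.9, hg19 chromosome 11, 122928197 to 122933938), the constitutive HSP70 of the cytosol, had 588, 632 and 710.2 FPKM in DA+ and 504, 478 and 499 FPKM in DA- cells. Every DA+ value was higher, and the mean was 643 ± 61.9 FPKM in DA+ against 493 ± 14.1 FPKM in DA- cells (SD, n = 3 each), 1.30-fold on the log2(FPKM + 0.5) scale (log2 fold change 0.38, SE 0.09, limma adjusted p = 0.110). DNAJA1, a J-domain partner of HSPA8 known to be farnesylated, had 57.2, 63.1 and 70.3 FPKM in DA+ and 49.1, 45.9 and 35.7 FPKM in DA- cells (1.46-fold, limma adjusted p = 0.110). Both kept separated groups after the GC and length correction, with log2 fold changes of 0.20 for HSPA8 and 0.23 for DNAJA1. They were 0.31 and 0.34 without both replicates numbered 3.

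HSPB1 (ENSG00000106211.8, hg19 chromosome 7, 75931861 to 75933612), the small heat shock protein HSP27, was among the most abundant members and went the other way. It had 426, 442 and 394 FPKM in DA+ and 503, 519 and 540.4 FPKM in DA- cells. All DA+ values were lower, and the log2 fold change was -0.31 (SE 0.08, limma adjusted p = 0.110) as deposited and -0.14 after the GC and length correction, still without overlap.

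The promoters of the chaperone genes hold different numbers of the elements HSF1 is known to bind. A heat shock element is a row of inverted GAA units spaced by a pair of bases. The RefSeq promoter windows (GRCh38.p14, 250 bases before to 50 after a start site) were searched on both strands for 2 adjoining units, GAANNTTC or TTCNNGAA, and for 3 adjoining units, which contain both 2-unit forms and may overlap each other. Of the 40 genes 34 had a window (46 windows in all), and CCT6A, CRYAB, HSF1, HSPA14, HSPB11 and STUB1 had none. A 3-unit element stood in 6 of the 46 windows (13.04%), against 0.490% of all 35116 windows, and a 2-unit element in 18 (39.1%), against 13.5%. The 3-unit genes were HSPA8, HSP90AA1, HSP90AB1, HSPD1, DNAJA1 and DNAJB6. In 4 of them the element nearest the start site of its window is shown in 60 bases, in capitals, 5′ to 3′ on the gene's strand, so that it can be set beside the expression values.
HSPA8, chr11:123062156-123062215, minus strand: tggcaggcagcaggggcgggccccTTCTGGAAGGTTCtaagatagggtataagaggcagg
HSP90AA1, chr14:102087097-102087156, minus strand: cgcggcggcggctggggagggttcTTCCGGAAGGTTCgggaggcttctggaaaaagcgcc
HSP90AB1, chr6:44247807-44247866, plus strand: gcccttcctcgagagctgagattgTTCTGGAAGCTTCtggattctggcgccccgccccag
HSPD1, chr2:197500031-197500090, minus strand: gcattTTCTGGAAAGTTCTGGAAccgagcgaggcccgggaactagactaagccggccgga

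In HSPD1 overlapping 3-unit elements form a single longer run, and the HSP90AA1 stretch holds a further 2-unit element in lower case. HSPA1A, HSPA1B, DNAJB1 and HSPB1, whose groups overlapped or, for HSPB1, lay lower in DA+ cells, had 2-unit elements only in their windows. They are shown for comparison, with a 2-unit element of each in capitals. Other genes with 2-unit elements only went differently. DNAJB4, CCT2, CCT4 and TCP1 were higher in every DA+ library as deposited, while the groups of HSPA9, HSPB8 and STIP1 overlapped. Among the known HSF1 targets, HSPH1, BAG3 and HSPE1 had a window with neither form of element. HSPH1 was higher in every DA+ library as deposited, and the groups of BAG3 and HSPE1 overlapped. DNAJB1 has several RefSeq start sites, and the element shown is the one nearest upstream of the start whose window holds 2 of them.
HSPA1A, chr6:31815411-31815470, plus strand: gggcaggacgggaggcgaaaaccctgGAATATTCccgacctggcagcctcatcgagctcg
HSPA1B, chr6:31827607-31827666, plus strand: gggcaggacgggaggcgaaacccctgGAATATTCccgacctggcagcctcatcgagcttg
DNAJB1, chr19:14518411-14518470, minus strand: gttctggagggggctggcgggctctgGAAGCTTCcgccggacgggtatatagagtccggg
HSPB1, chr7:76302465-76302524, plus strand: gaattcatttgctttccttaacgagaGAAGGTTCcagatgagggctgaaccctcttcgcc

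All 6 genes with a 3-unit element had a higher mean in DA+ cells as deposited. So did 21 of the other 28 genes with a window and 60% of all tested genes. HSP90AB1 turned after median-of-ratios scaling and when corrected for GC and length. The median log2 fold change was 0.40 for the 6, against 0.20 for the 28. Every DA+ value lay above every DA- value in 3 of the 6 and 13 of the 28 (24.4% of all tested genes). Every DA+ value lay below in 0 and 2 of them (14.1% of all tested genes). The 6 also had lower transcript GC content (median 46.1% against 49.4%), and the medians corrected for GC and length were 0.19 and 0.07. Of the 3 genes with 2 such elements, HSPD1 stood at 0.42, HSPA8 at 0.38 and HSP90AB1 at 0.04. A match describes letters only, and units that depart from the GAA form were not searched for.

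Of the 6 HSP70 genes 5 had a higher mean in DA+ cells, 4 after median-of-ratios scaling. HSPA13 (ENSG00000155304.4, hg19 chromosome 21, 15743436 to 15755805), known as a microsomal HSP70 that lacks the peptide-binding domain and so not a cytosolic chaperone, had 5.93, 6.57 and 8.60 FPKM in DA+ and 4.41, 4.30 and 2.17 FPKM in DA- cells. Its log2 fold change of 0.91 (SE 0.23, limma adjusted p = 0.110) was the highest of the 40 genes, and its groups stayed apart after the GC and length correction (0.42). It was 0.47 without both replicates numbered 3. HSPA9, the mitochondrial HSP70 mortalin, averaged 38.8 ± 6.29 FPKM in DA+ and 29.6 ± 4.86 FPKM in DA- cells, and HSPA14, a ribosome-associated HSP70, averaged 5.04 ± 0.863 FPKM in DA+ and 4.25 ± 0.439 FPKM in DA- cells (SD, n = 3 each). In both the groups overlapped.

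The HSP110 genes HSPH1 and HSPA4 encode exchange factors that reload HSP70. HSPH1 (ENSG00000120694.15, hg19 chromosome 13, 31710762 to 31736525) had 24.8, 28.2 and 33.5 FPKM in DA+ and 24.6, 22.3 and 15.9 FPKM in DA- cells. The nearest values of the groups, 24.8 and 24.6 FPKM, almost met, and the log2 fold change of 0.46 (SE 0.16, limma adjusted p = 0.117) was 0.08 after the GC and length correction, where the groups overlapped, and 0.17 without both replicates numbered 3. HSPA4 averaged 24.6 ± 4.31 FPKM in DA+ and 20.2 ± 3.57 FPKM in DA- cells (SD, n = 3 each), with overlap.

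The cytosolic HSP90 genes stood at unequal fold changes. HSP90AA1 (ENSG00000080824.14, hg19 chromosome 14, 102547075 to 102606036), the inducible form, had 91.4, 111 and 139 FPKM in DA+ and 85.2, 82.0 and 48.0 FPKM in DA- cells (1.61-fold, log2 fold change 0.69, SE 0.22, limma adjusted p = 0.111). Without both replicates numbered 3 its log2 fold change was 0.27, and after the GC and length correction it was 0.45 with overlapping groups. HSP90AB1 (ENSG00000096384.15, hg19 chromosome 6, 44214824 to 44221620), the constitutive form and the more abundant, had 509.7, 499 and 596 FPKM in DA+ and 551, 459.8 and 552 FPKM in DA- cells. Its groups overlapped (log2 fold change 0.04, 95% interval -0.20 to 0.28 from limma). The ratio of HSP90AA1 to HSP90AB1 was 0.179, 0.223 and 0.233 in DA+ and 0.155, 0.178 and 0.0870 in DA- libraries. These ratios did not overlap (two-sided p = 0.1 in an exact permutation test, again the smallest value possible). The nearest, 0.179 in DA+ replicate 1 and 0.178 in DA- replicate 2, almost met. Transcripts of other genes, above all the pseudogenes HSP90AA2P and HSP90AB3P, share 17.5% of the 50-base windows of HSP90AA1 and 18.8% of those of HSP90AB1.

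TRAP1 (ENSG00000126602.6, hg19 chromosome 16, 3701640 to 3767598), the mitochondrial HSP90, was lower in every DA+ library, at 34.6, 35.3 and 30.3 FPKM against 38.4, 39.5 and 41.7 FPKM in DA- cells. Its log2 fold change was -0.25 (SE 0.08, limma adjusted p = 0.112) as deposited and -0.20 once corrected for GC and length, the lowest corrected value of the 40 genes.

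The mitochondrial chaperones did not share a direction. Of the 5 genes whose proteins work in mitochondria, HSPA9, HSPD1 and HSPE1 had higher and TRAP1 and DNAJA3 lower means in DA+ cells. HSPD1, the chaperonin HSP60, had 52.1, 55.9 and 71.6 FPKM in DA+ and 53.7, 45.4 and 35.0 FPKM in DA- cells, overlapping through replicate 1 (log2 fold change 0.42, limma adjusted p = 0.125, and 0.13 without both replicates numbered 3). HSPE1, its lid HSP10, is transcribed from the neighbouring gene and had 2.98, 3.63 and 2.86 FPKM in DA+ and 2.92, 3.07 and 2.89 FPKM in DA- cells. That is far below HSPD1 per length. The HSPD1 span in the table encloses HSPE1, and 27.2% of the 50-base windows of HSPE1 occur in transcripts under 10 other gene entries, most of them in the read-through gene HSPE1-MOB4, so the HSPE1 level is uncertain. DNAJA3, the mitochondrial J-domain protein, averaged 11.9 ± 0.690 FPKM in DA+ and 12.7 ± 0.498 FPKM in DA- cells (SD, n = 3 each).

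J-domain proteins start the ATPase cycle of HSP70, and 4 of the 7 genes had a higher mean in DA+ cells. DNAJB4 (ENSG00000162616.8, hg19 chromosome 1, 78444859 to 78483648), a relative of DNAJB1, had 7.13, 7.33 and 10.3 FPKM in DA+ and 5.15, 5.25 and 3.04 FPKM in DA- cells. The groups were apart, also after the GC and length correction, with log2 fold changes of 0.83 (SE 0.20, limma adjusted p = 0.110) before it and 0.33 after it. The value was 0.44 without both replicates numbered 3. DNAJA2 averaged 12.1 ± 1.68 FPKM in DA+ and 9.72 ± 1.07 FPKM in DA- cells, DNAJB6, an inhibitor of polyglutamine aggregation, 9.45 ± 0.854 FPKM in DA+ and 8.65 ± 0.842 FPKM in DA- cells, and DNAJB2, a form enriched in neurons, 8.54 ± 0.763 FPKM in DA+ and 8.78 ± 0.121 FPKM in DA- cells (SD, n = 3 each). These 3 overlapped between the groups.

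**Figure D3:**
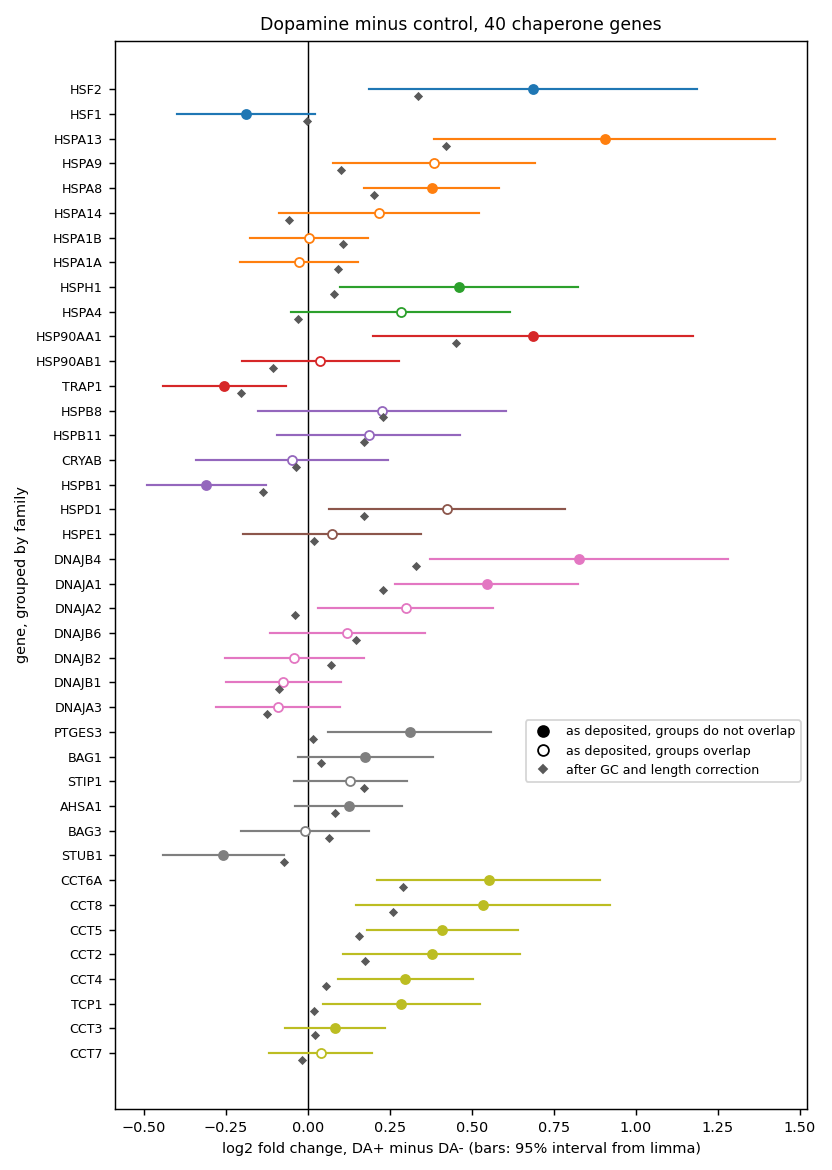
Log2 fold change (DA+ minus DA-) of the 40 genes, grouped by family, with the 95% interval from limma as bars. Filled points mark genes whose groups do not overlap, open points those that do, and small diamonds give the value after the GC and length correction, which lies nearer to 0 for most genes with higher DA+ values.

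Of the remaining small heat shock proteins, HSPB8, which acts with BAG3, averaged 2.53 ± 0.235 FPKM in DA+ and 2.12 ± 0.531 FPKM in DA- cells. HSPB11, better known as a subunit of the ciliary transport machinery, averaged 7.27 ± 0.946 FPKM in DA+ and 6.33 ± 0.758 FPKM in DA- cells (SD, n = 3 each). Both overlapped between the groups.

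Of 6 cochaperone genes of HSP70, HSP90 or both, BAG3 included, the log2 fold changes ran from -0.26 to 0.31. STUB1 (ENSG00000103266.6, hg19 chromosome 16, 730224 to 732870), which encodes the ubiquitin ligase CHIP, had 105, 106 and 90.9 FPKM in DA+ and 116, 124 and 121 FPKM in DA- cells, all lower with dopamine (log2 fold change -0.26, SE 0.08, limma adjusted p = 0.111). Corrected for GC and length it stood at -0.07. The span of JMJD8, at 36.7 FPKM on average, overlaps STUB1, and no source used here gives the strand setting of the counting. The p23 gene PTGES3 averaged 57.4 ± 7.19 FPKM in DA+ and 46.2 ± 5.28 FPKM in DA- cells, AHSA1, an activator of the HSP90 ATPase, 69.1 ± 2.34 FPKM in DA+ and 63.3 ± 3.20 FPKM in DA- cells, and STIP1, which hands clients over to HSP90, 74.3 ± 3.23 FPKM in DA+ and 67.9 ± 4.37 FPKM in DA- cells (SD, n = 3 each). BAG1, another exchange factor of HSP70, averaged 5.89 ± 0.116 FPKM in DA+ and 5.16 ± 0.137 FPKM in DA- cells. The groups of PTGES3, AHSA1 and BAG1 did not overlap, while those of STIP1 did. Corrected for GC and length this turned round: PTGES3 (0.01), AHSA1 (0.08) and BAG1 (0.04) overlapped, and STIP1 (0.17) did not.

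The cytosolic chaperonin TRiC, which folds actin and tubulin, is built from 8 different subunits. All 8 subunit genes had a higher mean in DA+ cells (6 after median-of-ratios scaling, where CCT3 and CCT7 turned, and 7 after the GC and length correction, where CCT7 turned). In 7 of them every DA+ value lay above every DA- value, as in 24.4% of all tested genes and 42.2% of those under 50% GC. The summed level of the 8 was 488, 512 and 564 FPKM in DA+ and 463, 442 and 420.3 FPKM in DA- libraries, without overlap. CCT5 had 43.2, 44.6 and 53.1 FPKM in DA+ and 38.3, 35.4 and 31.8 FPKM in DA- cells (log2 fold change 0.41, SE 0.10, limma adjusted p = 0.110). CCT6A had 51.3, 55.7 and 69.3 FPKM in DA+ and 47.1, 41.5 and 31.8 FPKM in DA- cells (log2 fold change 0.55, SE 0.15, limma adjusted p = 0.110). CCT8 had 30.4, 32.7 and 41.0 FPKM in DA+ and 27.8, 26.7 and 17.6 FPKM in DA- cells (log2 fold change 0.53, SE 0.17, limma adjusted p = 0.111). These 3 of the 8 kept separated groups after the GC and length correction, where DA+ values all lay higher in 11.5% of all genes. Without both replicates numbered 3 the log2 fold change was 0.25 for CCT5, 0.27 for CCT6A and 0.21 for CCT8, and the median of the 8 subunits was 0.18, against 0.34 with them.

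CCT4 had 61.3, 64.0 and 72.1 FPKM in DA+ and 58.7, 51.1 and 50.5 FPKM in DA- cells, and CCT2 had 37.0, 37.9 and 48.9 FPKM in DA+ and 32.6, 34.0 and 27.9 FPKM in DA- cells. TCP1 averaged 36.9 ± 4.68 FPKM in DA+ and 30.1 ± 2.81 FPKM in DA- cells, and CCT3 averaged 111 ± 3.22 FPKM in DA+ and 105 ± 1.81 FPKM in DA- cells (SD, n = 3 each). CCT7, the most abundant subunit transcript per length, had 121, 128 and 128 FPKM in DA+ and 122, 118 and 127 FPKM in DA- cells and was the one with overlapping groups (95% interval of the log2 fold change -0.12 to 0.20 from limma). CCT7 and CCT3 had the highest transcript GC content of the 8, at 51.3% and 51.2%, while the other subunits lay at 43.1% to 45.9%. After the GC and length correction the median log2 fold change of the 8 was 0.11, against 0.34 before.

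**Figure D4:**
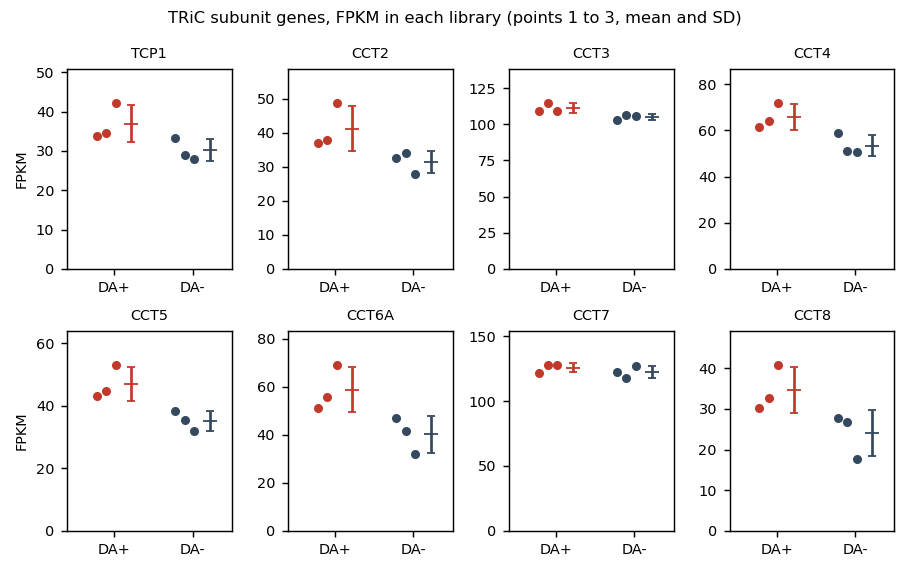
FPKM of the 8 TRiC subunit genes in each library (points in the order of replicates 1 to 3; horizontal line and bar, mean and SD, n = 3), DA+ in red on the left and DA- in dark blue on the right, with each axis starting at 0. In 7 genes all DA+ points lie above all DA- points, and CCT7 overlaps.

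Across the 40 genes the difference between the groups varied with transcript GC content. Pearson's r between GC content of the longest transcript and log2 fold change was -0.89 and Spearman's rho -0.86 over 40 genes, and Pearson's r was -0.75 over 11579 tested genes. All points come from the same 6 libraries, so this describes these libraries. All 21 chaperone genes under 50% GC had a higher mean in DA+ cells, as did 90.4% of all tested genes under 50% GC, and 15 of the 21 had non-overlapping groups (71.4%, against 42.2%). Of the 19 at 50% or more, 9 had a higher mean (47.4%, against 27.6%). In 2 of these 19 every DA+ value lay above every DA- value (10.5%, against 5.49%), and in 4 every one lay below (21.1%, against 27.9%). After the correction for GC content and length r was -0.49 and the median log2 fold change of the 40 was 0.08, against 0.00 over all genes.

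**Figure D5:**
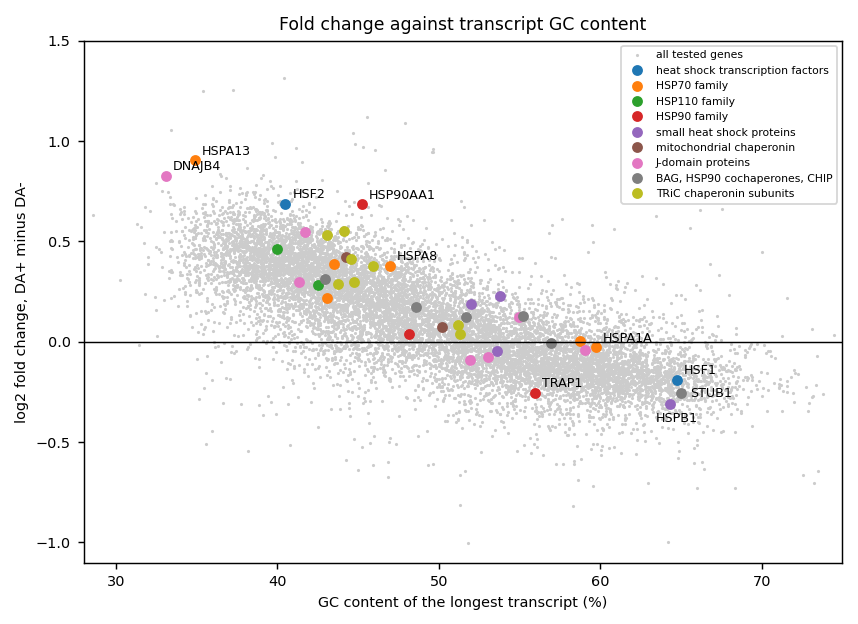
Log2 fold change (DA+ minus DA-) against GC content of the longest transcript in percent, for 40 chaperone genes in colour by family and all tested genes in grey; a few grey points lie outside the plotted range. Genes with low GC content, such as HSPA13 and DNAJB4, lie above 0, and genes with high GC content, such as HSPB1 and STUB1, below it.

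In the corrected values 0 of 40 chaperone genes had an adjusted p under 0.05, the lowest being 0.158, while 28 of 11579 genes did (0.242%). At an unadjusted p under 0.05 (limma) 9 were higher (22.5%, against 8.14% of all genes) and 2 were lower (5%, against 8.82%), and those 2 were HSPB1 and TRAP1. The 9 were DNAJA1, HSPA8, DNAJB4, CCT5, HSPA13, CCT6A, HSP90AA1, HSF2 and STIP1. In 8 genes the corrected DA+ values all lay above the DA- values (20%, against 11.5% of all genes) and in 3 they all lay below (7.5%, against 12.3%).

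Of 61 other cytosolic and mitochondrial chaperone and cochaperone genes 51 were tested. Of these 0 passed (limma, adjusted over all genes). An unadjusted p under 0.05 went with a higher mean in DA+ cells in 20 (39.2%, against 24.4% of all tested genes) and with a lower mean in 4 (7.84%, against 8.05%), and the median log2 fold change was 0.21. Once corrected for GC and length, 2 had a higher and 2 a lower mean at that threshold (3.92% each, against 8.14% and 8.82% of all genes), and the median was 0.00. Without both replicates numbered 3, 3 of 51 lay under it (5.88%). The gene with the smallest p was HSPB7, a small heat shock protein best known from heart and skeletal muscle, which had 47.8, 46.5 and 37.4 FPKM in DA+ and 61.1, 62.2 and 64.2 FPKM in DA- cells. Its groups were apart, with a log2 fold change of -0.51 (SE 0.10, limma adjusted p = 0.110), and -0.39 once corrected (limma adjusted p = 0.0703). CACYBP, FKBP5 and BAG5 came next, with log2 fold changes of 0.34, 0.38 and 0.42 before the correction and -0.04, 0.04 and 0.11 after it. HSPA6, a strictly heat-inducible HSP70 gene, stood at 0.0802 ± 0.0225 FPKM in DA+ and 0.0550 ± 0.0385 FPKM in DA- cells (SD, n = 3 each), below the filter.

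The chaperones of the endoplasmic reticulum had a larger median log2 fold change in the same libraries, 0.59 against 0.20 for the 40 genes. Corrected for GC and length the medians were 0.37 and 0.08. Single genes overlapped in range, from -0.14 to 1.31 as deposited, against -0.31 to 0.91 for the 40. Of 12 listed genes 11 had a higher mean in DA+ cells and 2 passed as deposited, and 5 passed once corrected for GC and length. HSPA5, an HSP70 of that compartment, had a log2 fold change of 0.96 (SE 0.10, limma adjusted p = 0.00790), against 0.38 for its cytosolic relative HSPA8. HSPA13, the microsomal HSP70 counted among the 40, stood at 0.91. HSP90B1, the HSP90 of the endoplasmic reticulum, stood at 0.80 (SE 0.17, limma adjusted p = 0.110), against 0.69 for HSP90AA1 and 0.04 for HSP90AB1. Corrected for GC and length, HSPA5 stood at 0.74 and HSPA8 at 0.20. HSP90B1 (0.46) and HSP90AA1 (0.45) were then nearly equal, with HSP90AB1 at -0.11. HMOX1, a gene of heme breakdown induced by oxidative stress, stood at 3.69 (SE 0.11, limma adjusted p = 6.06e-07). These differences between genes were not tested.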

How the data were processed

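FPKM values were deposited by the authors in 1 table, with gene symbols and positions on hg19. The tools named are STAR 2.7.1a, DESeq2 1.40.2, HTSeq 0.11.2 and FastQC 0.11.9, per the submitters' processing notes, which give them no role. Per the labels' protocols, ribosomal RNA was removed and libraries of total RNA kept strand information. No source used here says how FPKM was computed.

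Genes with a mean of at least 1 FPKM (11791) were compared as log2(FPKM + 0.5), which understates fold changes of low genes, with limma 3.58.1 in R 4.3.3 (intensity trend, two-sided, Benjamini-Hochberg over all tested genes, threshold 0.05). The correction subtracted, library by library, a loess curve (span 0.5) fitted to the deviations from gene means against GC content and transcript length (longest GENCODE transcript on GRCh38, matched by gene identifier), known for 98.2% of tested genes. It can remove part of a real difference. Depth was estimated from 2797 pseudogenes with spans of 150 to 1500 bases, taken as single exons; 92.6 to 93.8% of their low values were whole fragments within 0.03. The fit was tested on simulated data.

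The members and lists were chosen with earlier results of these data known. Values in every sample are given for the 12 members with the smallest p, the 4 most abundant and 13 named ones, and for others where they help. Other spans overlap 19 of the 40, and 15 share over 5% of their 50-base windows with transcripts of other genes, which makes their values uncertain.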

Additional observations from a re-analysis of the deposited data

How the results depend on the processing

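The direction of 27 of the 40 log2 fold changes held in all of up to 19 alternative settings. The number of chaperone genes past the adjusted threshold was 0 in all settings but sample quality weights (15) and leave-one-out fits, where it ran from 0 to 16. The number of genes called in all was 12, and it was 6 with no filter on low values, 27 after quantile normalization, 5 with no trend, 2706 with sample quality weights, 28 after the GC and length correction, 7 without both replicates numbered 3, and 3 to 2177 with 1 library left out. With the replicate block it was 3, and no chaperone gene passed. Deviations from the group means had correlations of -0.20, 0.28 and -0.37 between same-numbered libraries, for numbers 1, 2 and 3. Effects of single libraries, such as the GC slope, also enter these correlations. They therefore cannot decide whether the numbers pair the samples, and no label says so. The median log2 fold change of the chaperone genes, 0.20, was 0.10 after median-of-ratios scaling and 0.075 when corrected for GC and length. The cause of these shifts was not tested.

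The sign turned for 13 of the 40 genes in at least 1 setting. After median-of-ratios scaling the log2 fold change was -0.031 for CCT3, -0.074 for CCT7, -0.023 for HSPE1, -0.11 for HSPA1B and -0.076 for HSP90AB1. After quantile normalization it was -0.10 for HSPE1 and 0.026 for BAG3. With sample quality weights it was 0.023 for DNAJB2, 0.051 for HSPA1A and 0.11 for BAG3. After the GC and length correction it was -0.018 for CCT7, 0.070 for DNAJB2, -0.030 for HSPA4, 0.093 for HSPA1A, -0.11 for HSP90AB1, -0.056 for HSPA14, 0.064 for BAG3 and -0.039 for DNAJA2. Without both replicates numbered 3 it was 0.040 for DNAJB2, 0.014 for HSPA1A, 0.081 for BAG3 and 0.0056 for DNAJB1. With 1 library left out it ran from -0.015 to 0.13 for HSPE1, -0.089 to 0.029 for DNAJB2, -0.084 to 0.0053 for HSPA1A, -0.027 to 0.057 for HSPA1B, -0.049 to 0.087 for HSP90AB1, -0.083 to 0.055 for BAG3 and -0.084 to 0.016 for CRYAB. At 19.4 to 24.2 fragments per FPKM and kilobase, the lowest members (CRYAB, HSPB8 and HSPE1) rest on the fewest fragments.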
